A study of Mus musculus with 12 samples.

Results

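Bone marrow LSK cells that carried both a human KDM6B transgene and floxed Tet2 alleles were compared with LSK cells that carried Vav Cre alone. The double lesion group had the genotype Vav human KDM6B, Vav Cre and Tet2 flox/flox, with 3 libraries, and the control group had the genotype Vav Cre, also with 3 libraries. These are 6 of the 12 libraries of the series, chosen by their labels, and the comparison ran over all 15366 genes of the deposited table. All mice were C57BL/6 and untreated, and Vav Cre was present in both groups, so the comparison holds the recombinase constant. LSK cells lack lineage markers and carry Sca-1 and Kit; they were isolated by flow cytometry, and their RNA (10 to 20 ng) was amplified with a poly(A)-primed kit that does not mark strand. The labels give neither age nor the number of animals behind a library, so the tests speak of the variation among these libraries, which may be partly technical.

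LSK cells hold the blood stem cells, most of which rarely divide, together with multipotent progenitors that divide often. KDM6B is a histone demethylase that erases H3K27 trimethylation, a mark that Polycomb repressive complex 2 writes on silent genes. TET2 oxidises methylated cytosine in DNA, the first step of active DNA demethylation, and loss-of-function mutations of the human gene are common in clonal haematopoiesis and myeloid neoplasms. Vav regulatory sequences drive both the transgene and the recombinase in blood cells from early stages on, so neither lesion is confined to LSK cells. The single lesions are not described here.

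Each library held 25102856 to 26263370 reads on listed genes in the double lesion and 23140462 to 23536544 in Vav Cre, and a single read was worth 0.0373 to 0.0389 CPM in the double lesion and 0.0424 to 0.0457 CPM in Vav Cre. Replicates of Vav Cre scattered more, with a median SD over genes of 0.148 on the log2 scale in the double lesion and 0.277 in Vav Cre. The first principal component (49.1% of the variance) put all 3 double lesion libraries on 1 side and all 3 Vav Cre libraries on the other, with Vav Cre 3 nearest to the double lesion. Transcripts of the Y chromosome and Xist, which the labels do not cover, put double lesion 1 and 3 and Vav Cre 1 as male and the other 3 libraries as female. Kit, the receptor used in the sort, was at 907, 558 and 603 CPM in the double lesion and 506, 356 and 500 CPM in Vav Cre, and Ly6a, which encodes Sca-1, was at 99.1 to 122 CPM in the double lesion and 78.2 to 113 CPM in Vav Cre. Both markers of the gate were therefore expressed in all 6 libraries.

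The targeted genes were read first. Tet2 (chromosome 3, 133463679 to 133545139, GRCm38, minus strand) was at 37.2, 35.1 and 26.5 CPM in the double lesion and 82.9, 66.2 and 97.1 CPM in Vav Cre. All 3 double lesion values lay below all 3 Vav Cre values, and the double lesion mean was 40.1% of the Vav Cre mean. The log2 difference was -1.29 ± 0.19 (SE, limma on log2(CPM + 1), adjusted p = 0.0215), and an exact two-sided permutation test gave p = 0.1, the smallest that 3 libraries against 3 allow. Values are per gene, so reads of the floxed exons were not separated from the rest, and the exons overlap those of Gm42567 on the opposite strand. The mouse Kdm6b gene (chromosome 11, 69398508 to 69413675, minus strand; Kdm6bos lies opposite) was at 9.92, 12.3 and 9.30 CPM in the double lesion and 6.37, 6.54 and 7.91 CPM in Vav Cre. The groups did not overlap, but the log2 difference of 0.53 ± 0.23 did not pass (limma, adjusted p = 0.171; exact permutation p = 0.1). Reads of the human KDM6B transgene were not analysed here.

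Over all genes, 12646 passed the filter (CPM above 1 in at least 3 of the 6 libraries), and 289 of them were called at a limma adjusted p under 0.05, which is 2.29% of the genes tested. Of these, 151 were higher in the double lesion (1.19%) and 138 were lower (1.09%). The higher calls were larger: 103 of them and 32 of the lower ones differed by at least 2-fold. The median log2 difference of all genes tested was 0.05. In each of the 289 called genes the 3 double lesion values lay wholly above or below the 3 Vav Cre values, as they did in 33.2% of all genes tested. A set of 42 lists of blood, signalling, cell cycle and metabolic genes held 104 of the calls. Across these lists the members were spread to higher values for immediate early genes, eosinophil genes and MHC class II genes, and to lower values for G2 and M phase genes, ribosomal proteins and respiratory chain genes.

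**Figure D1:**
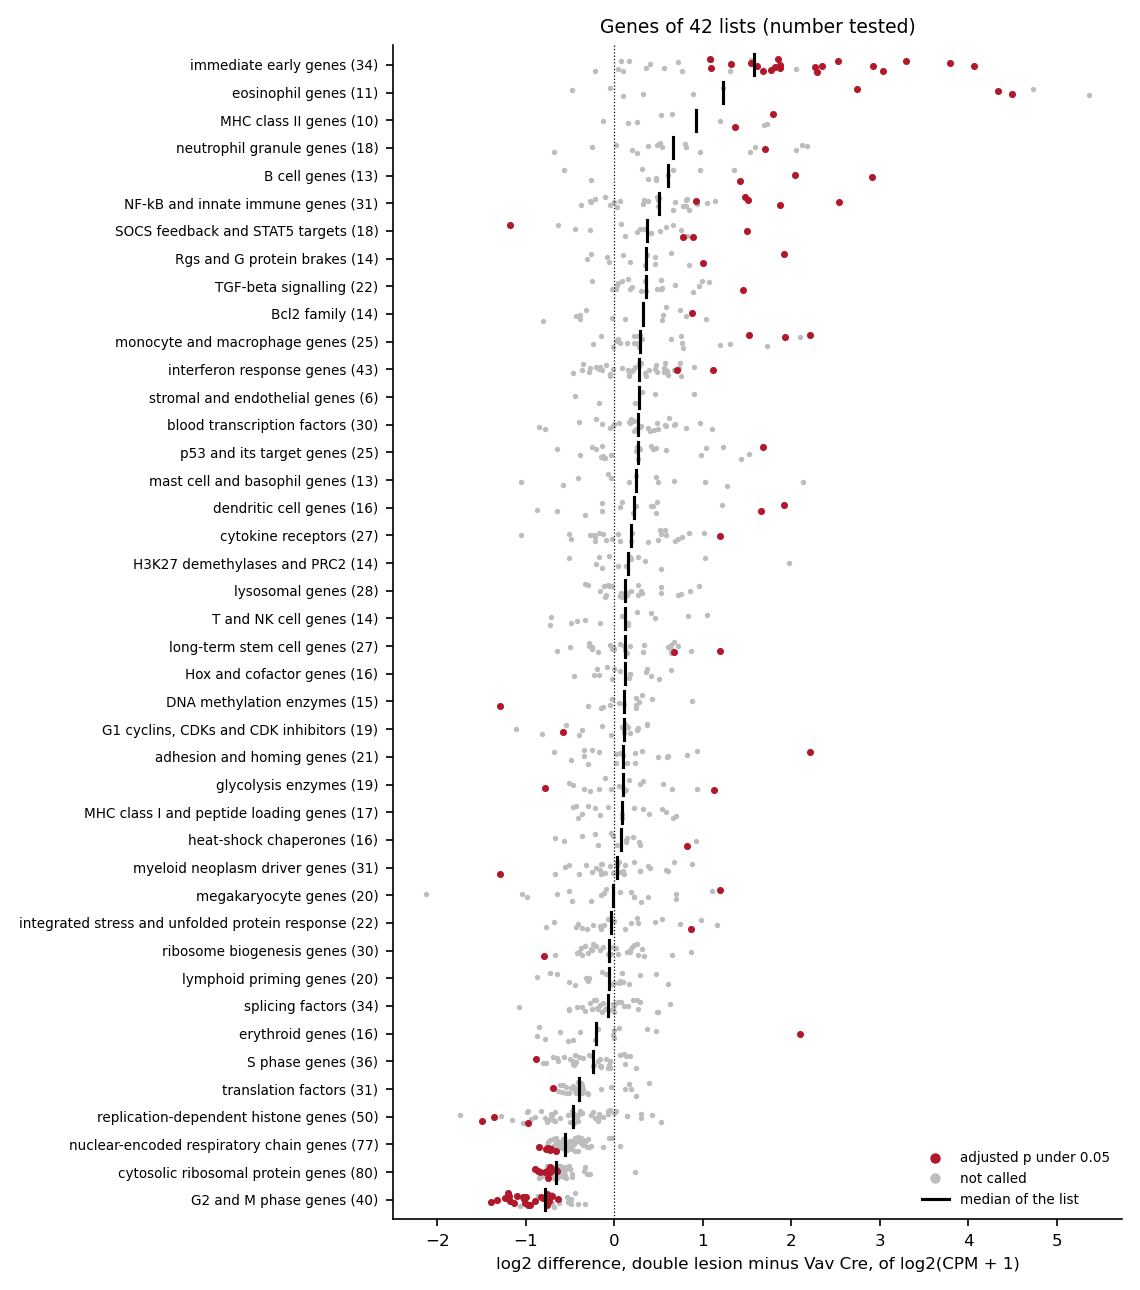
Log2 difference (double lesion minus Vav Cre, log2(CPM + 1) scale, horizontal axis) of every tested member of 42 gene lists (1 row each, number tested in brackets), with called genes in red, other genes in grey and the list median as a black bar. The immediate early genes at the top had a median of 1.58 with 20 of 34 called higher, and the G2 and M phase genes at the bottom a median of -0.79 with 23 of 40 called lower.

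Immediate early genes made up the largest group of higher calls among the 42 lists. These genes are transcribed within minutes of a growth factor, cytokine or stress signal without new protein synthesis, and they encode AP-1 and Egr transcription factors along with proteins that shut the response down. Of 38 listed genes 37 were in the table and 34 were tested, and 20 of these were called higher and none lower, against 1.19% of all genes tested called higher. The median log2 difference of the 34 was 1.58, beside 0.05 over all genes tested, and 33 of 34 were positive. Klf4 and Atf3 passed the filter only through the double lesion libraries. Summed over the 37 genes, the level was 9015, 12998.5 and 12404 CPM in the double lesion and 2693, 1910 and 3335 CPM in Vav Cre, so the group sums did not overlap.

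The promoters of immediate early genes are known to hold binding sites for SRF and CREB. The cyclic AMP response element TGACGTCA, which CREB binds, was searched on both strands in the RefSeq promoters (build GRCm38.p6, 250 bases before to 50 after the annotated start). It was found in 3 of the 18 called immediate early genes that had a promoter entry (16.7%), namely Btg2, Dusp1 and Ppp1r15a. Over the whole list it was in 4 of 46 promoters (8.70%), beside 1.79% of all 32851 promoters and 2.98% of those of the genes tested. The promoters of Dusp1 (chr17:26508423-26508722, minus strand) and Btg2 (chr1:134079106-134079405, minus strand) are shown, 5′ to 3′, with the element in capitals; a match describes the letters and not the binding of a factor.
Dusp1: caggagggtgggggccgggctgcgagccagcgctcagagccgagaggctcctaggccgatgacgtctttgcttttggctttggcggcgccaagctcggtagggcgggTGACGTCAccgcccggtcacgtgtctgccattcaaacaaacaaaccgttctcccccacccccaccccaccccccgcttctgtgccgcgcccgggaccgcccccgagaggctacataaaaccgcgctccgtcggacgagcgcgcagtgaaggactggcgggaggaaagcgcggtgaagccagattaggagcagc
Btg2: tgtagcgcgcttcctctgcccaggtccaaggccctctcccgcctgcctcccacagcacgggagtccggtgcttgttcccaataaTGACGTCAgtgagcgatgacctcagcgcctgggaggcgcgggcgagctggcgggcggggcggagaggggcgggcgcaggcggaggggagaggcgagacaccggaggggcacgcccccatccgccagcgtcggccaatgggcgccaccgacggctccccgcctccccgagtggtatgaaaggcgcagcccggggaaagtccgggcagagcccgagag

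Among the AP-1 subunits, Fos (chromosome 12, 85473890 to 85477273) was at 716, 2256 and 2031 CPM in the double lesion and 68.6, 54.6 and 182 CPM in Vav Cre. Every double lesion library exceeded every Vav Cre library, by 16.4-fold between the means (log2 difference 4.06 ± 0.50, limma, adjusted p = 0.00986). Double lesion 1 had the lowest of the 3 raised values. Jun, the main partner of Fos, was at 2421, 3158 and 2723 CPM in the double lesion and 749, 523 and 1073 CPM in Vav Cre (1.88 ± 0.23, adjusted p = 0.0102). Junb rose 3.31-fold and Jund 4.26-fold. Atf3, a stress-induced partner of Jun, was at 3.06, 5.40 and 7.82 CPM in the double lesion and at most 0.351 CPM in Vav Cre. Fosb was at 12.4, 57.3 and 46.1 CPM in the double lesion and 3.06, 9.52 and 11 CPM in Vav Cre, and it did not pass (adjusted p = 0.074).

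Egr1, a zinc finger factor that restrains stem cell division (chromosome 18, 34859823 to 34864984), was at 429, 404 and 673 CPM in the double lesion and 59.3, 17.1 and 38.9 CPM in Vav Cre. The groups were far apart, 13.1-fold between the means (3.8 ± 0.38, limma, adjusted p = 0.00419). Of the Krüppel-like factors, Klf2, which keeps lymphocytes quiescent, was at 32.5, 101 and 97.8 CPM in the double lesion and 8.19, 3.20 and 8.22 CPM in Vav Cre (11.8-fold, 3.30 ± 0.46, adjusted p = 0.0166). Klf6 was at 428, 801 and 740 CPM in the double lesion and 124, 106 and 98.8 CPM in Vav Cre (5.98-fold, 2.52 ± 0.22, adjusted p = 0.00226). In each of these genes the lowest double lesion library still exceeded the highest Vav Cre library. The orphan receptor gene Nr4a2 was called (1.32 ± 0.23, adjusted p = 0.0329), while its relative Nr4a1 was at 10.2 to 23.1 CPM in the double lesion and 1.42 to 6.85 CPM in Vav Cre and did not pass (adjusted p = 0.0863).

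Several genes known to dampen these signals were also called higher. Dusp1, a phosphatase that inactivates p38 and JNK kinases (chromosome 17, 26505590 to 26562128; its exons overlap Ergic1 on the other strand), was at 1102, 1782 and 1811 CPM in the double lesion and 176, 159 and 224 CPM in Vav Cre. It had the smallest adjusted p of any gene (8.40-fold, 3.04 ± 0.21, limma, adjusted p = 0.00125). Zfp36, which encodes tristetraprolin and speeds the decay of AU-rich mRNAs such as those of cytokines, was at 370, 605 and 636 CPM in the double lesion and 85.6, 40.3 and 89.9 CPM in Vav Cre (7.46-fold, 2.93 ± 0.31, adjusted p = 0.00477). Its relative Zfp36l2 was also higher (1.03 ± 0.16, adjusted p = 0.0242). The antiproliferative gene Btg2 was at 92.8, 119 and 144 CPM in the double lesion and 31.1, 33.8 and 43.5 CPM in Vav Cre (3.28-fold, adjusted p = 0.00813), and Btg1 rose 2.14-fold. Ier5 stood at 54.8, 62.7 and 66.8 CPM in the double lesion and 16.3, 16.6 and 15.9 CPM in Vav Cre, with little scatter in either group (1.85 ± 0.16, adjusted p = 0.00226). Not every member was raised: Klf10 was at 144 to 186 CPM in the double lesion and 139 to 165 CPM in Vav Cre, Gadd45b was at 13.5 to 16.6 CPM in the double lesion and 12.1 to 15.8 CPM in Vav Cre, and their groups overlapped.

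**Figure D2:**
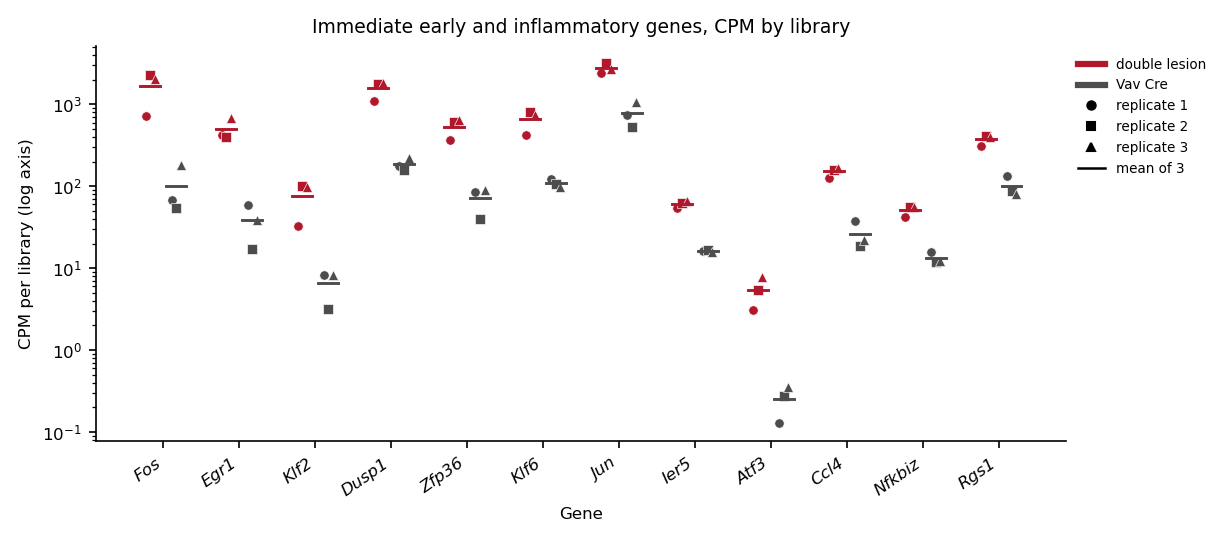
Level in CPM (log axis) of 12 immediate early and inflammatory genes in each library, double lesion in red at left and Vav Cre in grey at right of each pair, with replicate numbers by symbol and the mean of 3 as a bar. All 12 were called, and the points of a called gene never overlapped, beside 33.2% of all genes tested without overlap. Fos was at 716 to 2256 CPM in the double lesion and 54.6 to 182 CPM in Vav Cre.

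The number of immediate early calls, 20, varied with the libraries: it was 13, 5 and 8 without double lesion 1, 2 and 3, and 14, 18 and 27 without Vav Cre 1, 2 and 3. The median of the list stayed between 1.44 and 1.78 in those 6 fits. With a term for sex it was 11 calls with a median of 1.58. Transcripts of eosinophils were most abundant in double lesion 1, the library with the lowest immediate early sum of its group. Within Vav Cre they were most abundant in Vav Cre 1, which had neither the lowest nor the highest sum. The part of eosinophils in the immediate early level was not tested.

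NF-kB and innate immune genes gave a mixed picture, with 5 of 31 tested called higher (1.19% over all genes tested), none lower and a median of 0.51. The count was 2, 1 and 2 without double lesion 1, 2 and 3, and 3, 3 and 12 without Vav Cre 1, 2 and 3. Among the secreted products, Ccl4, a chemokine (chromosome 11, 83662584 to 83664683), was at 128, 160 and 167 CPM in the double lesion and 38, 18.7 and 22.3 CPM in Vav Cre (5.76-fold, 2.53 ± 0.24, limma, adjusted p = 0.00362). Ccl3, which lies beside it in the genome, was at 70.8, 73.6 and 96.3 CPM in the double lesion and 48.6, 20.8 and 21.1 CPM in Vav Cre (1.48 ± 0.30, adjusted p = 0.0455). Both chemokines were separated between the groups, Ccl3 with a high Vav Cre 1. The other 3 calls were inhibitors or modulators of NF-kB, Nfkbiz (3.86-fold), Tnfaip3, which encodes A20 (3.04-fold), and Nfkbid (1.95-fold). The subunits themselves were not called, with Nfkb1 at 184 to 212 CPM in the double lesion and 153 to 203 CPM in Vav Cre, and Rela at 132 to 140 CPM in the double lesion and 57.7 to 116 CPM in Vav Cre (adjusted p = 0.105). Nfkbia, the classical inhibitor, was at 105 to 122 CPM in the double lesion and 96.2 to 122 CPM in Vav Cre, which overlapped.

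Among other brakes on signalling, Rgs1, a GTPase activator that dampens chemokine receptors (chromosome 1, 144242296 to 144249242), was at 313, 414 and 402 CPM in the double lesion and 133, 88.1 and 80.9 CPM in Vav Cre (3.74-fold, 1.92 ± 0.19, limma, adjusted p = 0.00419). Rgs2 rose 2.04-fold, and these were the 2 calls among 14 tested Rgs and related genes (median 0.36), beside 1.19% of all genes tested called higher. Of 18 genes of SOCS feedback and STAT5 targets 3 were higher and 1 lower, beside 1.09% of all genes tested called lower. None of the 18 was called without Vav Cre 1, without any of the double lesion libraries or with a term for sex. Socs3, which blocks gp130 signalling, was at 12.7, 26.3 and 13.3 CPM in the double lesion and 4.41, 5.22 and 6.06 CPM in Vav Cre (1.5 ± 0.30, adjusted p = 0.0445), and Stat3 and the survival kinase gene Pim2 were also called higher (1.70-fold and 1.85-fold). Socs2, a STAT5 target, went the other way, with 8.91, 10.6 and 9.14 CPM in the double lesion and 30.6, 20.4 and 19.2 CPM in Vav Cre (-1.18 ± 0.23, adjusted p = 0.0433). The STAT5 target Cish was at 27.2 to 47.7 CPM in the double lesion and 25.3 to 41.7 CPM in Vav Cre, so the group ranges overlapped.

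Of 10 genes of MHC class II antigen presentation 2 were called higher in the double lesion, beside 1.19% of all genes tested, and none lower. H2-Aa, the alpha chain of I-A (chromosome 17, 34282744 to 34287823), was at 204, 189 and 153 CPM in the double lesion and 95.7, 52.9 and 26.4 CPM in Vav Cre (3.12-fold, 1.80 ± 0.37, limma, adjusted p = 0.0465). Cd74, the invariant chain, was at 503, 504 and 554 CPM in the double lesion and 285, 242 and 118 CPM in Vav Cre (1.36 ± 0.28, adjusted p = 0.0445). The groups did not overlap for 7 of the 10 genes (33.2% over all genes tested), and the list median was 0.92. H2-Eb1 (adjusted p = 0.0515) and Ciita, the master activator of the class (12.4, 9.78 and 5.76 CPM in the double lesion and 4.12, 1.19 and 1.58 CPM in Vav Cre, adjusted p = 0.0536), narrowly missed. The calls were not kept by edgeR (0 of 10) or without any of the double lesion libraries (0 each) or without Vav Cre 2 (0). Defining markers of B cells, summed over 4 genes, were at 35.5, 22.7 and 30.2 CPM in the double lesion and 3.74, 9.65 and 9.80 CPM in Vav Cre, and their part in the MHC class II level was not tested. The list of MHC class I genes had no call among 17 tested and a median of 0.08. H2-Q5, a gene of the class I region outside that list, was among all genes called, and it was called in 9 of 17 alternatives.

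Of 43 interferon response genes 2 were called higher (1.19% over all genes tested) and none lower, with a median of 0.28. The count was 1 in edgeR, and it was 0 without Vav Cre 1, without any of the double lesion libraries or with a term for sex. Iigp1, an interferon-inducible GTPase, rose 2.16-fold (limma, adjusted p = 0.0449). The next smallest p-values of the list belonged to Igtp and Irgm1, GTPases of the same family, at adjusted p = 0.0597 and 0.066. The list does not hold every interferon-inducible gene. Outside it, the GTPase genes Tgtp1, Tgtp2 and Gbp5 were among all genes called, as was Ifi205. The 3 GTPase genes were called in 12, 12 and 10 of 17 alternatives.

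Genes of G2 and M phase made up the largest group of lower calls among the 42 lists. They encode the cyclin B kinase, condensins, kinesins and spindle checkpoint proteins that a cell makes as it approaches division. All 40 listed genes were tested, and 23 of them were called lower and none higher, against 1.09% of all genes tested called lower. All 40 log2 differences were negative, with a median of -0.79 beside 0.05 over all genes, and for 39 of 40 the groups did not overlap (33.2% over all genes tested). The sum over the list was 4072, 5815 and 5679 CPM in the double lesion and 9043, 10619 and 8919 CPM in Vav Cre, lowest in double lesion 1. In bulk RNA of this kind, fewer cells of a state and less RNA per cell cannot be told apart.

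Short promoter elements are known for this gene group, the cell cycle genes homology region TTTGAA, bound by the DREAM and MuvB complexes, and the CCAAT box, bound by NF-Y. Both were searched on both strands in the same RefSeq promoters. TTTGAA was present in 13 of 19 promoters of called G2 and M phase genes (68.4%) and in 29 of 37 promoters of the whole list (78.4%), beside 17.9% of all promoters and 12.1% of those of the genes tested. CCAAT was present in 15 of 19 promoters of the called genes (78.9%), beside 37.4% of all promoters. The promoters of Ccnb2 (chr9:70421505-70421804, minus strand), Cdca3 (chr6:124829926-124830225, plus strand) and Cdk1 (chr10:69352863-69353162, minus strand) are shown because each held both elements, in capitals as they read on either strand (ATTGG is CCAAT on the other strand). The elements were found in genes that were called and in genes that were not, and the search says nothing of factor binding.
Ccnb2: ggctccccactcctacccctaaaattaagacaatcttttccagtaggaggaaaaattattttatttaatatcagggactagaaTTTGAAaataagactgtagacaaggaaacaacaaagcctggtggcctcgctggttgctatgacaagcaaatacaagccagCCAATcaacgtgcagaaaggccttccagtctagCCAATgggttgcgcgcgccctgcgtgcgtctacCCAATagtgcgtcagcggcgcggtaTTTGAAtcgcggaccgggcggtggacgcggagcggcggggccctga
Cdca3: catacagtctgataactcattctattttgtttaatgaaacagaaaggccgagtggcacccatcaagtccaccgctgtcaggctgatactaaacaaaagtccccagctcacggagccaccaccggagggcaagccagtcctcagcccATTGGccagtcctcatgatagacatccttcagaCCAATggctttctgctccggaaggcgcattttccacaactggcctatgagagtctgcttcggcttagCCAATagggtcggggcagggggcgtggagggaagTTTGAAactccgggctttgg
Cdk1: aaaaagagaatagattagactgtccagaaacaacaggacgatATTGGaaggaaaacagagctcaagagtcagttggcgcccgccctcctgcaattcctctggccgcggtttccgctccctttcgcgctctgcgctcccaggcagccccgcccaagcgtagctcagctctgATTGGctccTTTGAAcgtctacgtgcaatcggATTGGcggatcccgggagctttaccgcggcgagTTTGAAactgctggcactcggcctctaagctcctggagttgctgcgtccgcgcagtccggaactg

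Of the mitotic kinase and its regulators, Cdk1, the kinase that starts mitosis, was at 107, 147 and 155 CPM in the double lesion and 288, 405 and 250 CPM in Vav Cre (-1.19 ± 0.20, limma, adjusted p = 0.0319). Its partner Ccnb2 was at 119, 204 and 189 CPM in the double lesion and 314, 362 and 306 CPM in Vav Cre (-0.97 ± 0.19, adjusted p = 0.0445). For both genes the highest double lesion library stayed below the lowest Vav Cre library. Ccnb1 was at 126 to 208 CPM in the double lesion and 285 to 463 CPM in Vav Cre and just missed (adjusted p = 0.0515). Cdca3, which triggers mitotic entry by promoting Wee1 degradation (chromosome 6, 124829547 to 124833701), was at 64.4, 81.0 and 88.4 CPM in the double lesion and 184, 229 and 176 CPM in Vav Cre (-1.32 ± 0.16, adjusted p = 0.00938), the smallest adjusted p of the list.

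Ube2c, the ubiquitin-conjugating enzyme of the anaphase-promoting complex, had the most negative difference of the list, with 76.7, 137 and 122 CPM in the double lesion and 239, 398 and 250 CPM in Vav Cre (-1.40 ± 0.25, limma, adjusted p = 0.0342; Tnnc2 lies on the other strand). Of the centromere and spindle genes, Cenpa, the centromeric histone, was at 89.4, 153 and 129 CPM in the double lesion and 229, 410 and 245 CPM in Vav Cre (adjusted p = 0.0449). Cdca8 and Birc5, members of the chromosomal passenger complex, fell to 46.9% and 43.9% of the Vav Cre mean. Mki67, the proliferation antigen Ki-67 (chromosome 7, 135689784 to 135716361), was at 249, 354 and 336 CPM in the double lesion and 575, 633 and 594 CPM in Vav Cre (-0.95 ± 0.15, adjusted p = 0.023), and Top2a was at 279, 377 and 401 CPM in the double lesion and 687, 793 and 625 CPM in Vav Cre. The smallest differences of the list were those of Racgap1 (-0.34 ± 0.16) and Ncapd2 (-0.41 ± 0.15), which did not pass.

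**Figure D3:**
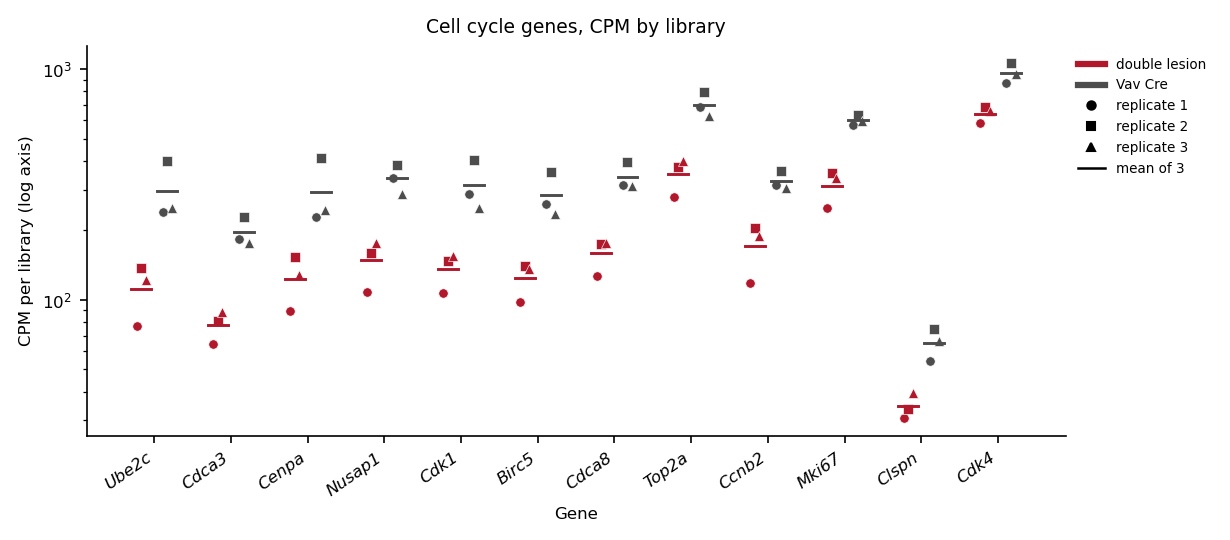
Level in CPM (log axis) of 12 cell cycle genes in each library, double lesion in red at left and Vav Cre in grey at right of each pair, with replicate numbers by symbol and the mean of 3 as a bar. All 12 were called lower, so all red points lay below the grey points of the same gene, beside 33.2% of all genes tested without overlap. Mki67 was at 249 to 354 CPM in the double lesion and 575 to 633 CPM in Vav Cre.

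The count of 23 depended on which libraries were in the fit. It was 1, 0 and 1 without double lesion 1, 2 and 3, and 1, 11 and 33 without Vav Cre 1, 2 and 3, while the list median stayed between -0.88 and -0.64. It was 15 in edgeR, 38 in DESeq2 and 1 with a term for sex, whose median was -0.74.

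Other steps of the cell cycle differed less. Over all genes tested, 1.19% were called higher and 1.09% lower. Of 36 S phase genes 1 was called lower, Clspn, a checkpoint adaptor at replication forks (30.8, 33.7 and 39.5 CPM in the double lesion and 54.2, 74.7 and 66.5 CPM in Vav Cre, limma, adjusted p = 0.0428), with a list median of -0.24. Tyms and Dut, enzymes of thymidylate supply, did not overlap between the groups and did not pass (adjusted p = 0.0512 and 0.0527). Of 19 G1 cyclins, CDKs and CDK inhibitors the only call was Cdk4, at 581, 682 and 659 CPM in the double lesion and 873, 1060 and 949 CPM in Vav Cre (-0.58 ± 0.12, adjusted p = 0.0475), and the list median was 0.11. Among 50 replication-dependent histone genes 3 were called lower, with a median of -0.47. Hist1h1e, a linker histone, was at 76.6, 80.2 and 78.7 CPM in the double lesion and 223, 298 and 125 CPM in Vav Cre (-1.36 ± 0.26, adjusted p = 0.043). Histone genes share sequence and Hist1h1e overlaps Hist1h2be in the annotation, so reads may be split among them; after a length and GC trend was removed, a choice made after seeing the data, the list median was -0.22. Among 25 genes of p53 and its targets the only call was Btg2, and among 14 Bcl2 family genes Mcl1, which protects stem cells from apoptosis, rose 1.84-fold (adjusted p = 0.0212).

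Of 80 tested genes of cytosolic ribosomal proteins, which make up the body of the ribosome, 11 were called lower in the double lesion, beside 1.09% of all genes tested, and none higher. The log2 difference was negative for 79 of the 80, with a median of -0.66. Rps2 was at 743, 862 and 801 CPM in the double lesion and 1328, 1798 and 1234 CPM in Vav Cre (-0.84 ± 0.15, limma, adjusted p = 0.0372; Snora64 and Snhg9 overlap it). Rpl36 and Rpl14 were at 62.9% and 58.9% of the Vav Cre mean. Summed over 81 genes the level was 27657, 31714 and 30919 CPM in the double lesion and 43395, 58570 and 40945 CPM in Vav Cre, highest in Vav Cre 2. That library also had the most transcripts of erythroid markers, 166 CPM over 3 genes beside 30.3 to 65.8 CPM in the other 5 libraries, whose part in the ribosomal protein level was not tested. The count was 0 without double lesion 1, 2 or 3 or without Vav Cre 1, 10 without Vav Cre 2 and 75 without Vav Cre 3. It was 2 in edgeR and 74 in DESeq2, and the median was -0.41 once the length and GC trend was removed. Ribosomal protein genes have many processed pseudogenes that can share reads with them.

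Of 77 nuclear-encoded genes of the respiratory chain 6 were called lower (1.09% over all genes tested) and none higher, with a median of -0.56. Atp5g2, a subunit of the ATP synthase ring, was at 109, 141 and 135 CPM in the double lesion and 216, 289 and 200 CPM in Vav Cre (-0.85 ± 0.17, limma, adjusted p = 0.0428). Cox4i1 of complex IV and Sdhb of complex II fell to 59.8% and 63.1% of the Vav Cre mean. The list median was -0.24 with the length and GC trend removed and -0.38 without Vav Cre 2. The count was 2 without Vav Cre 2, 62 without Vav Cre 3 and 0 without any of the other 4 libraries, in edgeR or with a term for sex. Eef1g was the only call among 31 translation factors (median -0.40) and Nhp2, a box H/ACA ribonucleoprotein, the only call among 30 ribosome biogenesis genes (median -0.05). Of 19 glycolysis genes the glucose transporter Slc2a3 was higher (75.5, 81.9 and 80.1 CPM in the double lesion and 47.0, 29.3 and 32.9 CPM in Vav Cre, adjusted p = 0.0288). Gapdh was lower, at 638, 702 and 712 CPM in the double lesion and 1097, 1432 and 1028 CPM in Vav Cre (adjusted p = 0.0372). Its level was thus not constant across these libraries, but it was called in only 11 of 17 alternatives. It did not pass without double lesion 1, 2 or 3, without Vav Cre 1, without a filter or with a term for sex.

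Genes of long-term stem cells showed no common direction. Of 27 tested, 2 were called higher, beside 1.19% of all genes tested, and none lower, and the median was 0.12. Hlf, a transcription factor of stem cells, was at 340, 278 and 323 CPM in the double lesion and 223, 177 and 188 CPM in Vav Cre (1.60-fold, 0.68 ± 0.13, limma, adjusted p = 0.043). Every double lesion library exceeded every Vav Cre library, and Meis1 and Tie1 were also separated but did not pass (adjusted p = 0.0575 and 0.0623). Against this, Slamf1, which encodes CD150, was at 15.9 to 34.1 CPM in the double lesion and 24 to 50.2 CPM in Vav Cre, and Vwf was at 21.5 to 43.9 CPM in the double lesion and 32.4 to 78.6 CPM in Vav Cre. In edgeR neither of the calls held (0 of 27), and without single libraries the count was 0 for each double lesion library and Vav Cre 1, 1 for Vav Cre 2 and 7 for Vav Cre 3.

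Lists of lineage genes gave few calls, beside 1.19% of all genes tested called higher and 1.09% called lower. Lymphoid priming genes had none among 20 (median -0.06); Dntt, the terminal transferase of lymphoid progenitors, was at 482, 430 and 434 CPM in the double lesion and 1014, 556 and 992 CPM in Vav Cre and did not pass (limma, adjusted p = 0.0596). Of 20 megakaryocyte genes 1 was called, higher. Alas2, the haem synthesis enzyme of erythroid cells, was the only call among 16 erythroid genes, with 10.3, 9.85 and 14.4 CPM in the double lesion and 2.84, 2.15 and 0.966 CPM in Vav Cre (2.10 ± 0.31, adjusted p = 0.0217), while the median of the list was -0.20. No call was made among 30 blood transcription factors (median 0.27) or 16 Hox and cofactor genes (median 0.12). Myc had the smallest p of the transcription factors, at 767, 923 and 870 CPM in the double lesion and 523, 490 and 670 CPM in Vav Cre (adjusted p = 0.0566). Skil, a repressor of SMAD signalling, was the only call among 22 genes of TGF-beta signalling (2.87-fold, adjusted p = 0.0368).

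Among 15 DNA methylation enzymes Tet2 was the only call and the median was 0.11, and Tet3 was at 37.2 to 51.1 CPM in the double lesion and 26.1 to 49.7 CPM in Vav Cre and Tet1 at 85.3 to 109 CPM in the double lesion and 75.8 to 90.4 CPM in Vav Cre. Among 14 H3K27 demethylases and PRC2 genes none passed (median 0.16). Ezh2, the methyltransferase of PRC2 that opposes KDM6B, was at 103, 134 and 130 CPM in the double lesion and 173, 186 and 164 CPM in Vav Cre (-0.51 ± 0.14, limma, adjusted p = 0.0693). Kdm6a, the X-linked relative of Kdm6b, was at 54.4 to 92.2 CPM in the double lesion and 52.0 to 77.6 CPM in Vav Cre. Uty, its Y-linked relative, was at 51.5, 0.340 and 48.9 CPM in the double lesion and 40.8, 0.229 and 0.132 CPM in Vav Cre, following the sex of the library. Tet2 was the only call among 31 driver genes of myeloid neoplasms, whose median was 0.03.

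Genes of mature cells, which the LSK gate is meant to exclude, gave calls in the double lesion for eosinophils, B cells, neutrophils, monocytes and dendritic cells, all of them higher, beside 1.19% of all genes tested called higher. The neutrophil, monocyte and dendritic cell counts were 0 without any of the double lesion libraries and with a term for sex. For eosinophils and for B cells the count was 1, 0 and 1 without double lesion 1, 2 and 3. With a term for sex it was 2 for eosinophils and 1 for B cells, and in edgeR 1 and 2. Epx, the eosinophil peroxidase, was at 1043, 368 and 118 CPM in the double lesion and 120, 2.88 and 0.395 CPM in Vav Cre. Prg2, the major basic protein, was at 2917, 980 and 374 CPM in the double lesion and 441, 14.1 and 7.56 CPM in Vav Cre. In both genes Vav Cre 1 exceeded double lesion 3, and neither passed (limma, adjusted p = 0.0688 and 0.0733). Prg3 (chromosome 2, 84988215 to 84993886) was at 168, 60.1 and 21 CPM in the double lesion and 11.8, 0.823 and 0.176 CPM in Vav Cre and did pass (4.34 ± 0.91, adjusted p = 0.0474). It was called in 8 of the 17 alternatives. Ear1, an eosinophil ribonuclease of a multigene family whose members share sequence, was at 64.9, 18.9 and 9.30 CPM in the double lesion and 0.0424, 0.137 and 0 CPM in Vav Cre (4.49 ± 0.57, adjusted p = 0.0106), and it passed the filter only through the double lesion libraries. With Alox15 these were the 3 calls among 11 tested genes, whose median was 1.23. Summed over Epx, Prg2 and Prg3 the level was 4128, 1408 and 513 CPM in the double lesion and 573, 17.8 and 8.13 CPM in Vav Cre. Siglecf and Ltc4s, also listed, overlapped between the groups.

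B cell genes had 3 calls among 13 tested, with a median of 0.61. Cd22, an inhibitory co-receptor of the B cell receptor, was at 5.0, 3.4 and 2.57 CPM in the double lesion and 0.170, 0.0915 and 0.0439 CPM in Vav Cre (2.05 ± 0.30, limma, adjusted p = 0.0212). Ms4a1, which encodes CD20, was at 7.95, 5.28 and 8.21 CPM in the double lesion and 1.70, 2.38 and 1.98 CPM in Vav Cre (3.54-fold, adjusted p = 0.0413). Fcmr, the IgM Fc receptor, does not belong to the list and was at 10.9, 5.66 and 4.40 CPM in the double lesion and at most 0.0439 CPM in Vav Cre (adjusted p = 0.00938). Cd22 and Fcmr passed the filter only through the double lesion libraries. Pax5, which defines the lineage, was listed at 0 in 4 of the 6 libraries and reached 0.522 CPM in double lesion 1, and Cd79b was at 56.6 to 74.9 CPM in the double lesion and 75.1 to 79.2 CPM in Vav Cre.

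Of other cell types, Retnlg was the only neutrophil gene called among 18 (1.45, 3.13 and 2.88 CPM in the double lesion and at most 0.0879 CPM in Vav Cre, limma, adjusted p = 0.037). It passed the filter only through the double lesion libraries, with 3 reads in all of Vav Cre, and with a CPM above 5 as the filter the list had 0 calls. The neutrophil genes Ngp, S100a8 and S100a9 reached 9.84 to 11.1 CPM in double lesion 3 and at most 1.01 CPM in Vav Cre and did not pass (adjusted p = 0.0512 to 0.057). Monocyte and macrophage genes had 3 calls among 25, namely Cybb (3.13-fold), C1qb (3.99-fold) and Vcam1 (4.61-fold), and the dendritic cell genes Xcr1 and Cd83 were called among 16. C1qb was at 24.6, 29.4 and 15.6 CPM in the double lesion and 2.42, 9.74 and 5.27 CPM in Vav Cre. No call was made among 13 mast cell and basophil genes, 14 T and NK cell genes or 6 stromal and endothelial genes. Prss34 and Mcpt8, markers of basophils, were at 63.2 to 276 CPM in all libraries but Vav Cre 3, where they were at 3.29 and 13.5 CPM.

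Over their defining markers, the summed level was 22.7 to 35.5 CPM in the double lesion and 3.74 to 9.80 CPM in Vav Cre for B cells, and 7.61 to 43.1 CPM in the double lesion and 1.19 to 2.01 CPM in Vav Cre for neutrophils. These marker sums overlapped between the groups for eosinophils, monocytes, and mast cells and basophils. Over all 23 neutrophil genes of the list, the sums were 3338, 6232 and 3985 CPM in the double lesion and 2421, 4340 and 5156 CPM in Vav Cre, which overlapped. For the 15 B cell genes of the list they were 177 to 238 CPM in the double lesion and 147 to 175 CPM in Vav Cre. The part of these cells in the other differences was not tested.

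**Figure D4:**
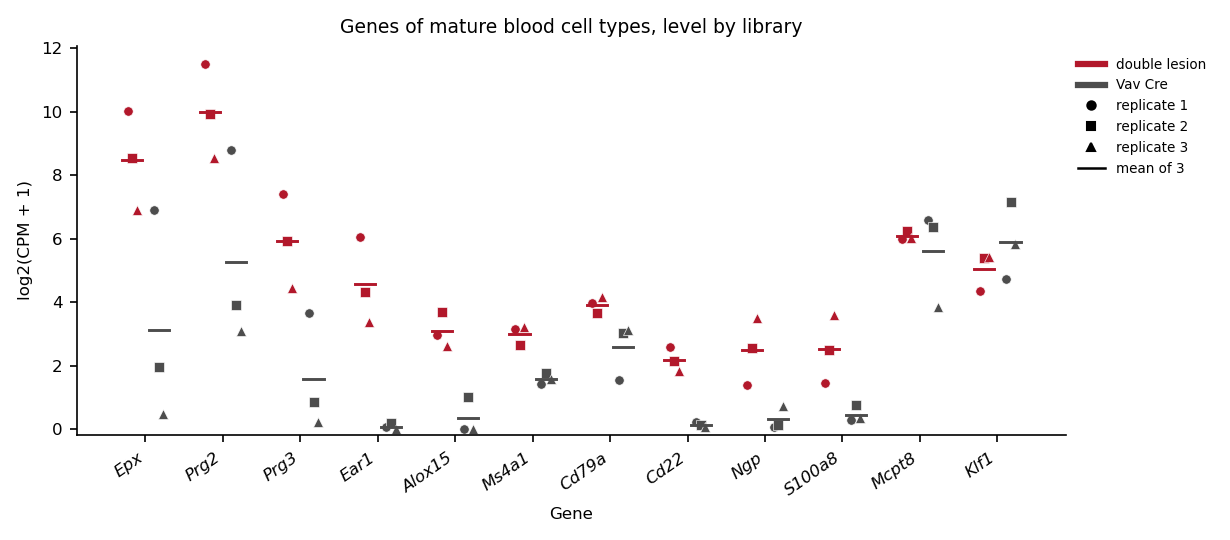
Level as log2(CPM + 1) of 12 genes of mature blood cells in each library, double lesion in red at left and Vav Cre in grey at right of each pair, with replicate numbers by symbol and the mean of 3 as a bar. Epx and Prg2 were spread over both groups, with Vav Cre 1 above double lesion 3, while Cd22 was at 2.57 to 5.0 CPM in the double lesion and at most 0.170 CPM in Vav Cre.

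Several of the largest decreases were in genes of none of the 42 lists. Cnn3, an actin-binding calponin (chromosome 3, 121426497 to 121458207; Gm42928 lies opposite), was at 23.5, 33.7 and 42.3 CPM in the double lesion and 170, 110 and 132 CPM in Vav Cre (-2.03 ± 0.23, limma, adjusted p = 0.00779). Sh3d19, an SH3 adaptor, was at 2.95, 2.0 and 1.95 CPM in the double lesion and 11, 10.2 and 12.6 CPM in Vav Cre (-1.90 ± 0.25, adjusted p = 0.0134). Anxa9, an annexin, was at 5.41, 4.23 and 5.64 CPM in the double lesion and 15.7, 21.7 and 27.6 CPM in Vav Cre (-1.87 ± 0.26, adjusted p = 0.0165), and Rnf128, the E3 ligase GRAIL, was at 25.5% of the Vav Cre mean. The low-abundance genes Lmcd1 and Uchl1 were also lower, at 0.661 to 1.19 CPM in the double lesion and 3.10 to 6.36 CPM in Vav Cre, and at 2.80 to 3.77 CPM in the double lesion and 7.6 to 10.4 CPM in Vav Cre.

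A few other lists held 1 call each, all higher, beside 1.19% of all genes tested called higher. Dnajb1, a co-chaperone, rose 1.78-fold among 16 heat-shock chaperones (median 0.08), and Dnajb9, a chaperone of the endoplasmic reticulum, rose 1.86-fold among 22 stress response genes (median -0.04). Vcam1 was the call among 21 adhesion and homing genes (median 0.10), and 1 of 27 cytokine receptors was called (median 0.18).

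Of the 42 lists 10 held no gene called by limma. At an unadjusted p under 0.05, which 3418 of all 12646 genes tested (27%) reached, there were 9 of 17 MHC class I genes, 10 of 30 blood transcription factors, 10 of 34 splicing factors (median -0.07) and 7 of 28 lysosomal genes (median 0.12). The same count was 3 each for lymphoid priming, mast cell and basophil, T and NK cell, and H3K27 demethylase and PRC2 genes, 2 for Hox and cofactor genes and 1 for stromal and endothelial genes. In edgeR these 10 lists held no call either. DESeq2 called 5 MHC class I genes, 5 splicing factors, 3 lysosomal genes, 2 each of the lymphoid, mast cell and PRC2 lists, 1 each of the transcription factor, Hox and stromal lists, and 0 of the T and NK cell list.

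The size of the call set depended strongly on the libraries and the test. Without double lesion 1, 2 or 3 there were 27, 10 and 20 calls, and without Vav Cre 1, 2 or 3 there were 60, 175 and 2881. Leaving out any of the 6 libraries thus moved the count by more than 1.5 times. A term for sex left 29, and edgeR on the recovered reads called 175. The groups of the called genes did not overlap, so leaving out a library, another pseudocount or array weights could not reverse a sign. Another filter, the replicate block and the fit of all 12 libraries do not alter a difference. A sign could change only with equal totals, a sex term, the length and GC trend removed, edgeR or DESeq2. No called gene changed sign in any of the 17 alternatives. Of the 10 genes called in every one, Dusp1, Klf6, Ier5, Ier2 and Egr1 are immediate early genes, and Ccl4, Rgs1, Alpk1 and Fam102b were among the others.

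**Figure D5:**
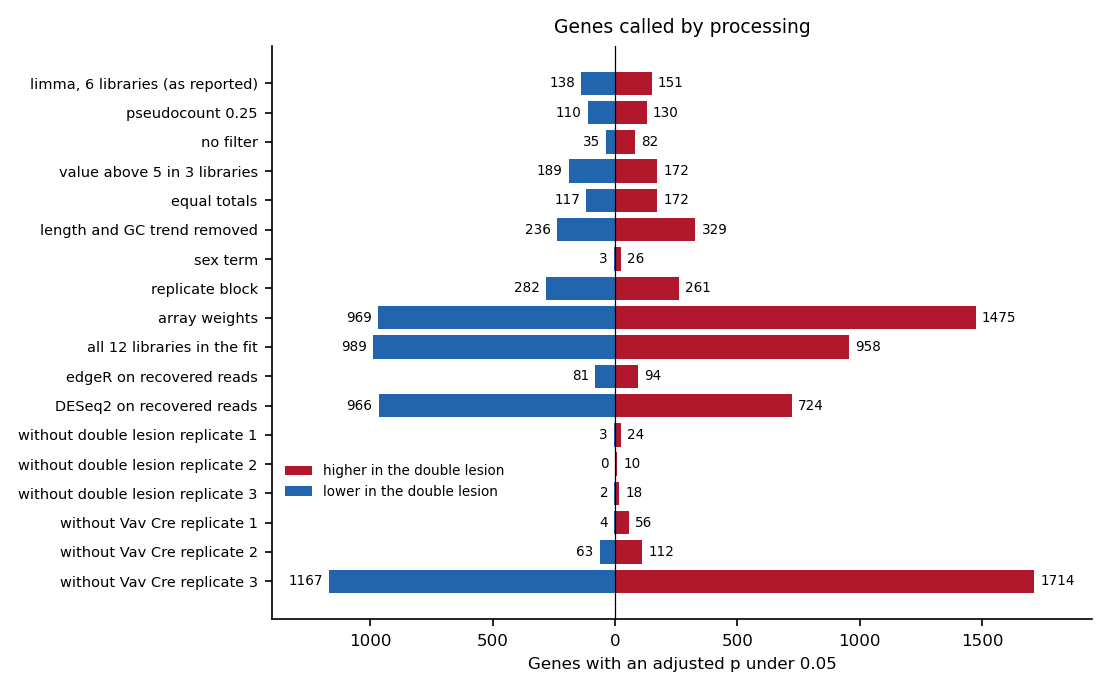
Number of genes called higher (red, to the right) and lower (blue, to the left) in the double lesion under the reported test and 17 alternatives, 1 row each. The reported test called 151 higher and 138 lower, and the counts ran from 10 without double lesion 2 to 2881 without Vav Cre 3.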

How the data were processed

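RNA of sorted LSK cells was measured by sequencing. The submitters' processing notes name TopHat2 2.0.10 with HTSeq 0.6.0, edgeR 3.8.6 and the build mm10. Neither the annotation counted nor the strand option is given in the sources used here. Values in the deposited table are a signal unit: the authors divided read counts by an effective library size, giving the CPM printed here. All values gave whole reads (100% within a tolerance of 1e-06 reads). In the 12 libraries no gene had fewer than 10 reads in all, so rarer genes were left out before deposit. The design had foreseen plain CPM, and the test was kept.

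From the deposited values, log2(CPM + 1) was tested with limma 3.58.1 in R 4.3.3 (empirical Bayes with a mean trend) on the 6 libraries of both groups, with the group as the only term and 4 residual degrees of freedom. Genes needed a CPM above 1 in at least 3 of the 6 libraries, which set aside 2720 of 15366. Differences on this scale understate the change of low genes. Adjusted p-values follow Benjamini and Hochberg over all 12646 genes tested, and a gene was called at an adjusted p under 0.05. Gene positions and overlaps are those of GENCODE M21, which matched 14772 genes by name; promoters are RefSeq's, and 9640 tested genes had an entry. The script was checked on simulated data.

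No pair of replicates agreed within counting error (chi-square per gene 17.6 to 89.1), so each library counted once. Limits on counts cover counting error only, since reads carried no molecular identifiers.

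Named genes were Tet2 and Kdm6b, the 12 largest called differences in each direction without predicted genes, and up to 3 called members of each list with the smallest adjusted p, or else the member with the smallest p. Other genes named were chosen after their values were seen, and a few called genes are not reported here. The comparison, the 42 lists and the tests were chosen with earlier results of these data known, so no list count is independent support. The 5 lists of the closing section were chosen after the values were seen. Alternatives were another pseudocount (0.25), no filter or a CPM above 5, equal column totals, a sex term, array weights, the replicate number as a block, all 12 libraries in 1 fit, edgeR 4.0.16 and DESeq2 1.42.0 on the recovered reads, each library left out, and a length and GC trend removed, the last added after seeing the data.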

Additional observations from a re-analysis of the deposited data

How the results depend on the processing

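The 289 calls became 240 with a pseudocount of 0.25, 117 without a filter, 361 with a CPM above 5, 289 with equal totals, 29 with a sex term, 2444 with array weights, 1947 with all 12 libraries, 565 with the length and GC trend removed, 175 in edgeR and 1690 in DESeq2. The 104 list genes called became 48 without a filter, 19 with a sex term, 389 with array weights, 353 with 12 libraries, 163 with the length and GC trend removed, 62 in edgeR and 345 in DESeq2. With single libraries left out, calls ran from 10 to 2881 and list genes from 7 to 414. The Tet2 difference ran from -1.43 to -1.14 in those fits, and it did not pass without Vav Cre 1 or any double lesion library; with a sex term it was -1.27 and did not pass (limma, adjusted p = 0.0684). Kdm6b passed in none of the 17 alternatives, and its difference of 0.53 was 0.18 with the length and GC trend removed (limma, adjusted p = 0.654).

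It was not settled whether the replicate numbers pair the libraries. Deviations of same-numbered libraries correlated at 0.331, 0.159 and -0.152 for numbers 1, 2 and 3. Double lesion 1 and 2 correlated best with the Vav Cre library of the same number, and double lesion 3 with Vav Cre 2 (0.187). With the replicate block 543 genes and 193 list genes were called.

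The cause of these shifts was not tested. Of the calls, 173 were shared by edgeR and DESeq2 and 287 held with all 12 libraries. None changed sign in any alternative. Their separated groups fixed this in advance for the fits that left out a library, changed the pseudocount or used array weights. The other filters, the replicate block and the fit of all 12 libraries left the difference of each gene they tested as it was. Array weights were 1.23 to 2.28 in the double lesion and 0.334 to 1.58 in Vav Cre, lowest in Vav Cre 3. Fewer libraries leave fewer residual degrees of freedom than the 4 of the full comparison, and sex could not be balanced, with 2 male libraries in the double lesion and 1 in Vav Cre.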

Other observations

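Genes of sterol synthesis and its regulation were not described above, and this list was written after the values were seen. Of 24 tested, 5 were called higher in the double lesion, beside 1.19% of all genes tested, and none lower. The median was 0.51 beside 0.05 over all genes. Sqle, an oxygenase of the pathway, was at 117, 114 and 124 CPM in the double lesion and 54.8, 67.5 and 56.9 CPM in Vav Cre (1.98-fold), and the groups were wide apart. Cyp51, another enzyme of the pathway, rose 1.84-fold, and Insig1, a sterol-regulated inhibitor of it, rose 2.31-fold. Fdps and Nsdhl, also of the pathway, overlapped between the groups. The count was 1 without any of double lesion 1, 2 or 3 or Vav Cre 1, 4 without Vav Cre 2 and 11 without Vav Cre 3.

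Other genes were called and belong to no list above. Alpk1, a kinase that senses a bacterial sugar metabolite, was at 57.8, 54.4 and 46.2 CPM in the double lesion and 12.4, 9.29 and 9.09 CPM in Vav Cre (5.14-fold, 2.26 ± 0.19, limma, adjusted p = 0.00226). The nuclear long non-coding RNAs Malat1 and Neat1 rose 2.01-fold and 2.26-fold. Ctla2a and Ctla2b, near-identical neighbours whose reads may be split between them, rose 2.24-fold and 2.36-fold. Cd1d1 and Cd1d2, a similar pair of lipid-presenting molecules, rose 2.02-fold and 4.24-fold. Among the lower genes were the chromatin proteins H2afz, Hmgb2 and Hmgn2, at 53.3%, 52.1% and 59.7% of the Vav Cre mean, and the tubulins Tuba1b, Tubb5 and Tubb4b, at 64.4%, 64.8% and 56.8%.

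A few further lists were also written after the values were seen, and 1.09% of all genes tested were called lower. Centromere and kinetochore genes had 14 of 37 called lower (median -0.74), with some members shared with the G2 and M phase list. Core Sm and LSm proteins of the spliceosome had 5 of 21 called lower (median -0.61), among them Snrpd2 at 103, 114 and 118 CPM in the double lesion and 198, 253 and 165 CPM in Vav Cre. Mitochondrial ribosomal proteins had 3 of 74 called lower (median -0.49) and mitochondrial import genes 3 of 23 (median -0.39). With the length and GC trend removed these medians were -0.30 and -0.20. In edgeR the counts were 11, 2, 0 and 2 for centromere, Sm and LSm, mitochondrial ribosomal and import genes, and all 4 were 0 without Vav Cre 1, without any of the double lesion libraries or with a term for sex.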
